A study of Mus musculus with 32 samples.

Results

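The ATAC-seq peak list of interstitial macrophages (IM) from C57BL6/J mice held 70013 open chromatin regions, and 20048 of them (28.6%) overlapped no region of the other 7 peak lists of the study. These 20048 regions, out of 311509 peaks in all 8 lists, are described here. A region counted as found in IM of C57BL6/J alone when not 1 base of it lay inside a peak of another list. Members were thus chosen by the peak calls themselves, and heights and overlaps are given below as descriptions with no test. The study sorted 4 kinds of phagocyte from the lungs of untreated mice of the strains C57BL6/J and DBA2/J: alveolar macrophages (AM), IM, inflammatory monocytes (iMo, called macrophages in 1 label field) and patrolling monocytes (pMo). Each of the 8 groups had 2 ATAC-seq libraries, summarised by the authors as 1 peak list, and 2 RNA-seq libraries with a TPM value for each of 24940 genes. The sort used antibodies to the leukocyte marker CD45, to SiglecF and Ly6g, to F4/80, CD64 and Ly6c, and to CD11b and CD11c, and the gates are not given in the sources used here. The labels do not tie the 2 libraries of a group to different mice, and p-values cover only the spread between these samples, which may be technical.

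ATAC-seq marks DNA that a transposase can reach, which in most cells means active or poised promoters and enhancers. Distal elements differ more between cell types than promoters do, and a sorted population carries the elements of every cell type inside its gate. Interstitial macrophages live in the lung tissue around airways and vessels, take up dying cells and display antigen on MHC class II. In lung digests they lie close to neutrophils, B cells and endothelial cells, which is why marker genes of those cells were followed beside the IM markers.

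The sequences of the promoter members that the results turn on come first, from RefSeq's promoter windows on GRCm38.p6, the reference that the files' mm10 build represents. Each window runs from 250 bases before to 50 bases after a gene's start, 32851 windows in all. No genome sequence was used here, so distal members are given by position only. Of the 20048 regions, 1216 touched a window and 406 lay wholly inside one. The best-scored promoter member of the neutrophil, endothelial, IM, MHC class II and B cell lists is shown (Hdc, Tie1, C1qb, H2-DMb2 and Cd79a). Cavin1, Rusc2 and Nradd are, with Tie1, the 4 best-scored members wholly inside a window of the gene they were assigned to. S100a9, Cldn5 and Prickle2 were added after their values were seen. Prickle2 was picked as the best-scored such member that holds the E-box letters given below, so its match was fixed by the choice. Sequences read 5′ to 3′ on the gene's strand, stop 30 bases after the start where the region runs further, and carry in capitals any match to a motif listed in the next paragraph.
Hdc, chr2:126618649-126618712, minus strand: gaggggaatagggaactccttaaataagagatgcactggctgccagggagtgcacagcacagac
S100a9, chr3:90695709-90695908, minus strand: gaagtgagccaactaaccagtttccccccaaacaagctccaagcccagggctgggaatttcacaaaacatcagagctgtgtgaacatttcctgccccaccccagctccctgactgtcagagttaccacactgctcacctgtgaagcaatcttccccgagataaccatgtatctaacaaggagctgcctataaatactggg
Tie1, chr4:118489897-118490096, minus strand: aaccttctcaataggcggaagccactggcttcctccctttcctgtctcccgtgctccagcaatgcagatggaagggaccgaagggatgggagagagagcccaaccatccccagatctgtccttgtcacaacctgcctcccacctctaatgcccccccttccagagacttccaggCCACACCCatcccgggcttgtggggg
Cldn5, chr16:18776647-18776846, plus strand: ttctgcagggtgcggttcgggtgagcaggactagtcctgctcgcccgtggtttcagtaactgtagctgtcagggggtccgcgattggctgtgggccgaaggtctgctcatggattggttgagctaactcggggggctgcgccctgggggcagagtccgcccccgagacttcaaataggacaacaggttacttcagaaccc
C1qb, chr4:136886171-136886279, minus strand: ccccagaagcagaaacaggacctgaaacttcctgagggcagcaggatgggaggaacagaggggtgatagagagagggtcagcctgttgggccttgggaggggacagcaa
H2-DMb2, chr17:34145022-34145221, plus strand: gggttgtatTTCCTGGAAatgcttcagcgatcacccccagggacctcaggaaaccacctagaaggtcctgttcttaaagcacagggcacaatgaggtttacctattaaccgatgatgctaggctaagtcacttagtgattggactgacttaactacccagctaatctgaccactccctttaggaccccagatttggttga
Cd79a, chr7:24897285-24897484, plus strand: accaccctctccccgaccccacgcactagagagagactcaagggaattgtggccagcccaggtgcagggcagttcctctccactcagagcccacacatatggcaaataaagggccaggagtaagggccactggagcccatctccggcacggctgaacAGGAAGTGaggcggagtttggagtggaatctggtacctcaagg
Cavin1, chr11:100970608-100970807, minus strand: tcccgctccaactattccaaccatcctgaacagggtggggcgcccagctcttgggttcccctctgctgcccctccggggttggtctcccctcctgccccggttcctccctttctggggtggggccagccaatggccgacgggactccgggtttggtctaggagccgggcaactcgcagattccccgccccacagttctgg
Rusc2, chr4:43406319-43406518, plus strand: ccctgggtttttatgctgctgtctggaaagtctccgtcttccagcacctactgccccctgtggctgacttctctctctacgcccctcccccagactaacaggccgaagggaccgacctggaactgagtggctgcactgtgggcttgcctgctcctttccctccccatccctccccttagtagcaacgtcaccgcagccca
Nradd, chr9:110624364-110624555, minus strand: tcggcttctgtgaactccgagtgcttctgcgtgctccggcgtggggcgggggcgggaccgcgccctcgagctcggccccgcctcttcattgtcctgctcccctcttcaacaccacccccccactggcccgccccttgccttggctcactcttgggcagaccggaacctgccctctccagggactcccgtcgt
Prickle2, chr6:92706223-92706422, minus strand: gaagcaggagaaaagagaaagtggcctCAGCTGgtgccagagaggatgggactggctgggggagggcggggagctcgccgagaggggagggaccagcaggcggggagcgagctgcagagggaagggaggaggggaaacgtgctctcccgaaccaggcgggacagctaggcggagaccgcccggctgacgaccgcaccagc

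Capitals mark the STAT letters TTCCNGGAA at H2-DMb2, the KLF letters GGGTGTGG on the reverse strand at Tie1, the ETS letters AGGAAGTG at Cd79a and the E-box letters CAGCTG at Prickle2, a planar polarity gene. The other 7 sequences held none of the 21 motifs searched on both strands. Those were AGGAAGTG for ETS factors and the overlapping GAGGAAGT of the PU.1 type, TTGCNNAA for C/EBP factors, TGANTCA for the AP-1 complex, and CCATTGT for SOX factors. The half-site of MAF factors was read as TGCTGAC, the MiT/TFE family as TCACGTGA, GATA factors as AGATAAG, the E-box as CAGCTG and RUNX factors as TGTGGTTT. The KLF family was read as GGGTGTGG, octamer factors as ATGCAAAT, the TCF/LEF family as CTTTGAA, STAT factors as TTCCNGGAA, the NR4A receptors as AAAGGTCA and the TEAD family as GGAATG. The longer EBF, IRF, CTCF, NF-kB and MEF2 motifs completed the 21. Among the 406 members wholly inside a window, 64 (15.8%) held CAGCTG, the core of an E-box read by basic helix-loop-helix factors. The letters were in 9.26% of the 3910 C57BL6J IM peaks inside a window that were shared with another cell type, and in 10.9% of all windows over their middle 200 bases. The KLF letters were in 5.42% of members, 3.53% of the shared peaks and 2.72% of all windows. The ETS letters were in 3.94%, 4.42% and 2.65% in that order, and the C/EBP letters in 5.42%, 5.12% and 7.47%. Median GC content was 64.0% in promoter members and 65.0% in the shared peaks, against 53.0% over all windows. Members held fewer CG dinucleotides than the shared promoter peaks, with a median of 11.5 against 17.0 in 200 bases. A match is a description of letters, not evidence that a factor was bound.

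Most of these regions were low peaks. Their height, the signal value in the authors' lists, ran from 7.41 to 873.7 with a median of 10.3 and quartiles of 8.43 and 14. C57BL6J IM peaks shared with another cell type had a median height of 25.7, and the 429 peaks found in both IM lists and no other had 20.2. Heights in each list were whole multiples of a single step, as they would be if 1 read were scaled to a common total. That step was 0.206 in the C57BL6J IM list and 0.731 to 1.26 in the other 7, which is 3.56 to 6.14 times larger. The lowest peak of the C57BL6J IM list stood at 7.41, and the lowest peak of any other list at 20.5. Of the 20048 regions, 18372 (91.6%) lay below 20.5, so that a peak of their height appears in no other list. The remaining 1676 stood at or above 20.5, and 351 stood at or above 31.2, the highest minimum among the other lists. Whether the step is a depth is not stated in the sources used here, and its part in the number of regions was not tested.

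**Figure D1:**
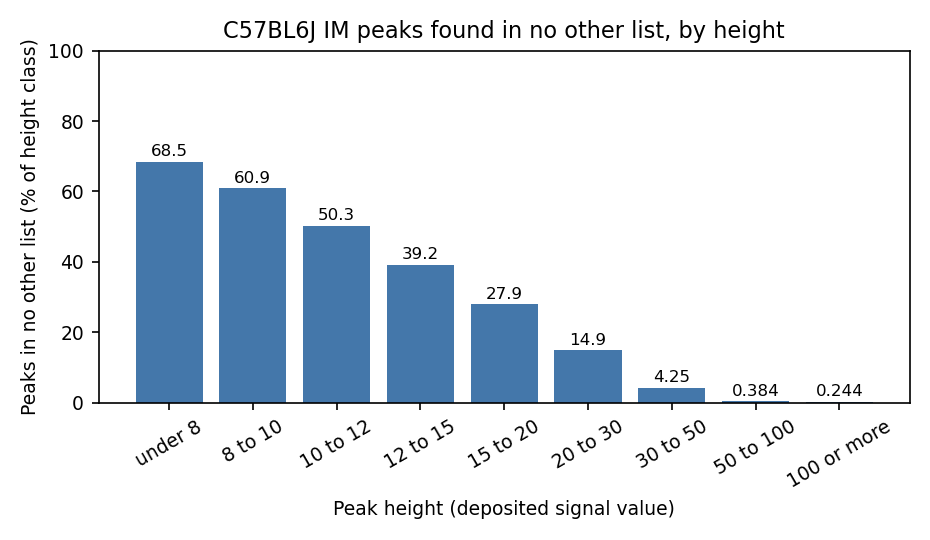
Share of C57BL6J IM peaks that overlapped no peak of the other 7 lists (percent, vertical axis from 0 to 100) in 9 classes of peak height (deposited signal value, horizontal axis). The share fell with every class, from 68.5% under a height of 8 to 0.244% at 100 or more.

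The share of C57BL6J IM peaks found in no other list followed height closely, from 68.5% of peaks under 8 to 14.9% between 20 and 30 and 0.384% between 50 and 100. The other 7 lists held between 156 such peaks (0.587% of the pMo list of DBA2J) and 5372 (12.3% of the AM list of DBA2J), and the DBA2J IM list held 178 (0.729% of its 24429). Members at the edge of another list's peak were the smaller share. The median distance to the nearest peak of another list was 4722 bp, 34.5% of members were more than 10 kb away and 17.1% were under 500 bp. At the border of the choice, 65 members began within 19 bases of another list's peak with a median height of 12.3, and 25 peaks that overlapped by 1 to 20 bases had 14.2.

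Members lay away from promoters. Within 1 kb of a transcription start lay 16.3% of them (3263), inside a gene body 40.1% (8043) and outside genes 43.6% (8742). The C57BL6J IM peaks shared with another cell type had 30.5% within 1 kb of a start, and the peaks of both IM lists alone 28.2%. AM peaks found in DBA2J alone, a set of 5372, had 5.27%. Assigning each region to the nearest transcription start within 100 kb placed 18649 (93.0%) at 9406 genes, 37.7% of the genes in the table, at a median distance of 11475 bp. Of the assigned members, 28.5% had a gene below 1 TPM in both C57BL6J IM libraries, against 17.7% of the shared peaks and 31.2% of the peaks of both IM lists alone.

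Many of the tallest members lay on unplaced contigs. Of the 44 with a height of 50 or more, 23 lay on unplaced contigs, and the other 21 lay on assembled chromosomes, 6 of these within 500 bp of another list's peak. All 138 contig peaks of the C57BL6J IM list were members, 116 of them on the contig of Pisd-ps3, a pseudogene at 0 TPM in every IM library, because the other 7 lists held no contig peak at all. Among members on chromosomes the tallest was at Crebzf, with a height of 266.0 but a score of 25. Members at Snx20 (height 112.1, score 10) and AU015791 (109.7, score 9) were also tall but low in score. By score, the first on chromosomes was at Junb, a subunit of the AP-1 factor, on chromosome 8 from 84978461 to 84978660. It had a height of 232.3 and began 8 bp from another list's peak. Next came Hdc, whose histidine decarboxylase makes histamine, on chromosome 2 from 126618513 to 126618712, 66 bp past the gene's start. That region had a height of 141.3 and lay 10704 bp from the nearest peak of another list. The third was at Marcks, an actin-linked kinase substrate, with a height of 83.5 and a gap of 33 bp. The Junb and Marcks members thus stood beside peaks of other lists, while the Hdc start had a peak in the C57BL6J IM list alone.

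Members clustered at some genes. Of the 9406 genes, 5065 had 1 member, 3720 had 2 to 4, 621 had 5 or more and 46 had 10 or more. After the contig gene Pisd-ps3, and with predicted genes set aside, the most were at Mroh2a with 24 over 24.7 kb and at Sik1, a salt-inducible kinase gene, with 18. Cxxc5, a CXXC zinc finger gene, had 15. Bcor, Rgs3, Cmip, Anp32a and Bcl9l had 13 each. Sik1 was at 158.8 and 118.6 TPM in the 2 C57BL6J IM libraries and at 53.2 and 41.3 in DBA2J IM, while C57BL6J monocytes had 240.5 to 399.3 TPM and C57BL6J AM 5.54 and 6.71. Cxxc5 was at 11.1 and 9.83 TPM in C57BL6J IM against 0.71 to 4.58 in the other C57BL6J libraries, with no overlap, and was called higher there (log2 difference 1.76, limma adjusted p = 4.5e-04).

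The nearest genes were read against 13 marker lists of cell types and of MHC class II presentation. Over all genes, 37.7% had a member, and members made up 28.4% of the C57BL6J IM peaks assigned to genes. At neutrophil genes members made up 58.1% of C57BL6J IM peaks (86 of 148, at 21 of 24 genes), and at endothelial genes 56.3% (89 of 158, at 25 of 28). At IM genes they made up 32.0% (32 of 100, at 16 of 26), at MHC class II genes 32.8% (20 of 61, at 9 of 10) and at B cell genes 28.4% (21 of 74, at 11 of 22). The lists of the other sorted cells were lower, with 16.2% for AM, 17.9% for inflammatory monocyte and 23.9% for patrolling monocyte genes. The rule removed every peak shared with the AM and monocyte lists, which by itself lowers the shares at their genes. Cell types without a peak list had none of their own peaks removed, so the order of the marker lists comes in part from the rule. The remaining lineages ranged from 30.4% for dendritic cell to 63.6% for eosinophil and mast cell genes, the latter on 14 members at 4 genes. The mesenchymal list stood at 50.0%, T and NK cell at 46.2% and epithelial at 41.8%. Of the members assigned to neutrophil genes 14% lay within 1 kb of the start, and 27.0% of those at endothelial genes, against 17.5% over all genes. At a height of 20.5 or more, 12 endothelial (42.9%), 8 neutrophil (33.3%), 4 IM (15.4%) and 2 B cell genes (9.09%) kept a member. MHC class II genes had 30.0%, T and NK cell genes 18.5%, and the remaining lists 0% to 14.3%. Over all genes the share was 5.34% (1333 genes). No peak list of sorted neutrophils, endothelial cells or B cells was used here.

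**Figure D2:**
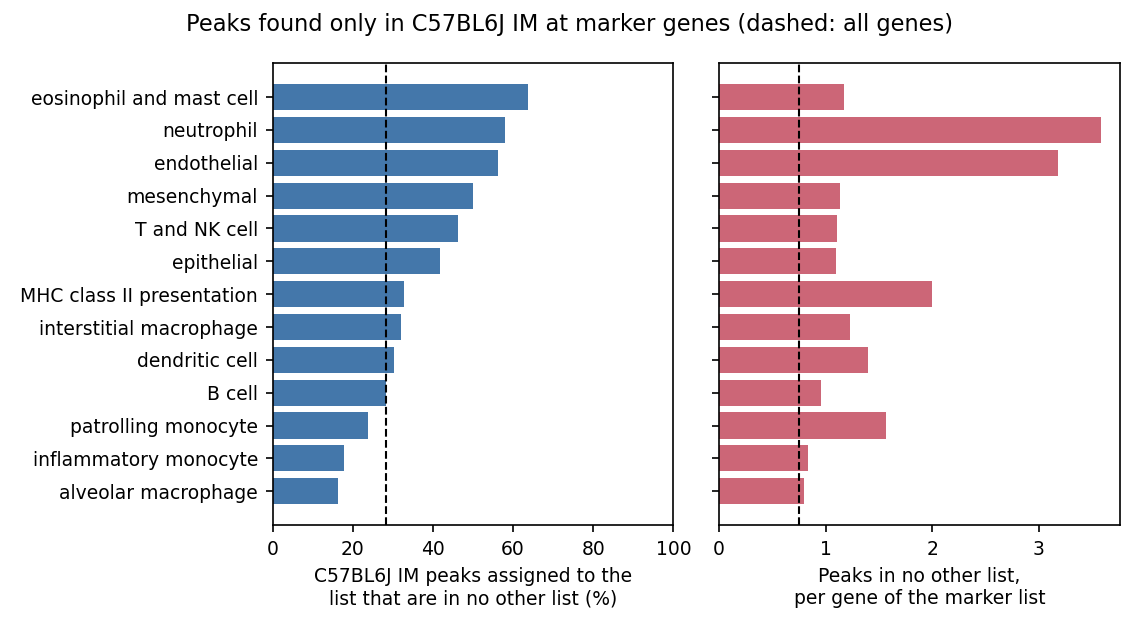
For 13 marker lists, left, the percent of C57BL6J IM peaks assigned to the list's genes that were in no other peak list, and right, the number of such peaks per gene of the list; dashed lines give all genes (28.4% and 0.748). Neutrophil and endothelial genes had the most regions per gene, 3.58 and 3.18, against 1.23 for IM genes and 0.955 for B cell genes. Peaks shared with the AM or monocyte lists were left out by the rule, which lowers the values at their marker genes.

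RNA was measured apart from the choice of regions, so it was tested. Values of log2(TPM + 1) were fitted with limma for the 12277 genes that averaged 1 TPM or more, and calls were made at an adjusted p of 0.05 (Benjamini-Hochberg). Differences on this scale understate the change of low genes. Genes low in the other cell types passed the limit of 1 TPM through IM. In marker lists of such genes, the share called is therefore raised. Each IM contrast set IM against the average of the other 3 cell types of the strain, so that a gene called higher in IM need not exceed each of them. Inflammatory monocyte markers show this: 8 of 12 were called higher in C57BL6J IM and 11 in DBA2J IM, while their summed RNA was 1410 and 1120 TPM in C57BL6J IM and 3890 and 4120 in C57BL6J iMo. Of all tested genes, 25.2% were called higher in C57BL6J IM than that average and 3.45% lower, and the same contrast within DBA2J called 36.0% higher and 5.71% lower. The median of all genes stood at 0.32 and 0.40 in these contrasts and at -0.05 and -0.04 after median-of-ratios scaling, so the split between higher and lower depends on scaling. In these bulk samples, fewer cells of a type and less RNA per cell cannot be told apart.

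IM marker RNA was high in IM of both strains. The list was chosen with earlier results of these data known, so these calls are no independent check of the label. All 26 IM markers were called higher in IM in both strains, and 25 in C57BL6J and 24 in DBA2J after median-of-ratios scaling. C1qb, a chain of the first complement component, was at 464.8 and 959.4 TPM in C57BL6J IM and 323.1 and 338.8 in DBA2J IM, against 0.09 to 27.6 in the other libraries. Its single member covered the start, on chromosome 4 from 136886080 to 136886279, with a height of 24.3 and the sequence shown above. Lyve1, a hyaluronan receptor of vessel-associated macrophages, had 4 members, the tallest with a height of 13 and at -132 bp, positions being counted from the start with negative values before it. Its RNA was at 64.4 and 182.5 TPM in C57BL6J IM and 113.5 and 101.6 in DBA2J IM, and the strains overlapped. Stab1, a scavenger receptor shared with sinusoidal endothelium, had 3 members, 1 of them 37 bp past the start with a height of 9.05. Stab1 RNA was at 300.5 and 555.0 TPM in C57BL6J IM and 84.6 and 100.1 in DBA2J IM. The strains did not overlap, and Stab1 was called higher in C57BL6J IM (log2 difference 2.14, limma adjusted p = 2.2e-03). Tmem119, a membrane protein best known from microglia, had 4 members, 1 of them at -102 bp with a height of 21.8. It was at 13.9 and 19.2 TPM in C57BL6J IM and 4.10 and 5.60 in DBA2J IM, again without overlap (log2 difference 1.58, adjusted p = 6.1e-03, and 0.053 without DBA2J IM replicate 1). Gas6, a bridging ligand in the uptake of dying cells, also had 4 members, the tallest at 16.3 and 4363 bp past the start. Its RNA, at 34.7 and 78.9 TPM against 17.8 and 20.7, was called higher in C57BL6J IM (log2 difference 1.40, adjusted p = 0.020), but not without C57BL6J IM replicate 2 (0.10) or either DBA2J IM library (0.11 and 0.055). Of the 26 IM markers, 5 (19.2%) were called higher in C57BL6J IM than in DBA2J IM and none lower, against 6.74% higher and 3.77% lower over all tested genes; leaving out 1 IM library at a time gave between 1 and 12. At IM genes the DBA2J IM list held 21 peaks at 10 genes and the C57BL6J IM list 100, against 23051 and 65701 over all genes. No region at these genes was found in both IM lists and nowhere else, but only 380 of all 24940 genes had such a region.

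MHC class II genes carried members at Ciita, the transactivator of the pathway, and at H2-Oa (4 each), at H2-Eb1 and H2-Aa (3 each), at H2-Ab1 (2), and at H2-DMa, H2-DMb1, H2-DMb2 and H2-Ob (1 each). Only Cd74, the invariant chain, had none of the 10. Ciita members lay at -13679, -7239, -534 and 26472 bp, with heights of 8.02 to 14.6. The tallest member at the MHC class II genes, 33.7, was inside H2-DMa on chromosome 17 from 34127567 to 34127766. H2-Aa RNA was at 1413 and 1934 TPM in C57BL6J IM and 1626 and 1407 in DBA2J IM, above the 14 to 729.1 of the other libraries. Of the 10 genes, 9 were called higher in C57BL6J IM than in the average of the other cell types and 10 in DBA2J IM. All tested genes had 25.2% and 36.0%. After median-of-ratios scaling the class II counts were 8 and 8. Between the strains' IM, only H2-DMb2 was called, lower in C57BL6J (18.0 and 15.3 against 35.0 and 42.9 TPM, log2 difference -1.18, adjusted p = 0.015). Class II genes of this cluster resemble each other, and reads shared between them were not told apart here.

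Neutrophil genes held 86 members. Hdc had 12 members among its 17 C57BL6J IM peaks, Il1r2, a decoy receptor for interleukin 1, 9 of 14, and Padi4, which citrullinates histones in extracellular traps, 8 of 11. Mmp9, a gelatinase of neutrophil granules, had 7 of 9, and Csf3r, the granulocyte colony-stimulating factor receptor, 7 of 12. Trem1 and the lactoferrin gene Ltf had 5 each, and S100a9, a subunit of calprotectin, had 4 with the tallest at -87 bp and a height of 32.3. The Hdc start region at 141.3 was far taller than the next of its 12 members, 24.7, and the 7 at Mmp9 ran from 8.64 to 26.3. Within 100 kb of the Hdc start, 15 of 25 C57BL6J IM peaks were in no other list, while the DBA2J IM list had 9 peaks there, the nearest 12437 bp past the start.

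**Figure D3:**
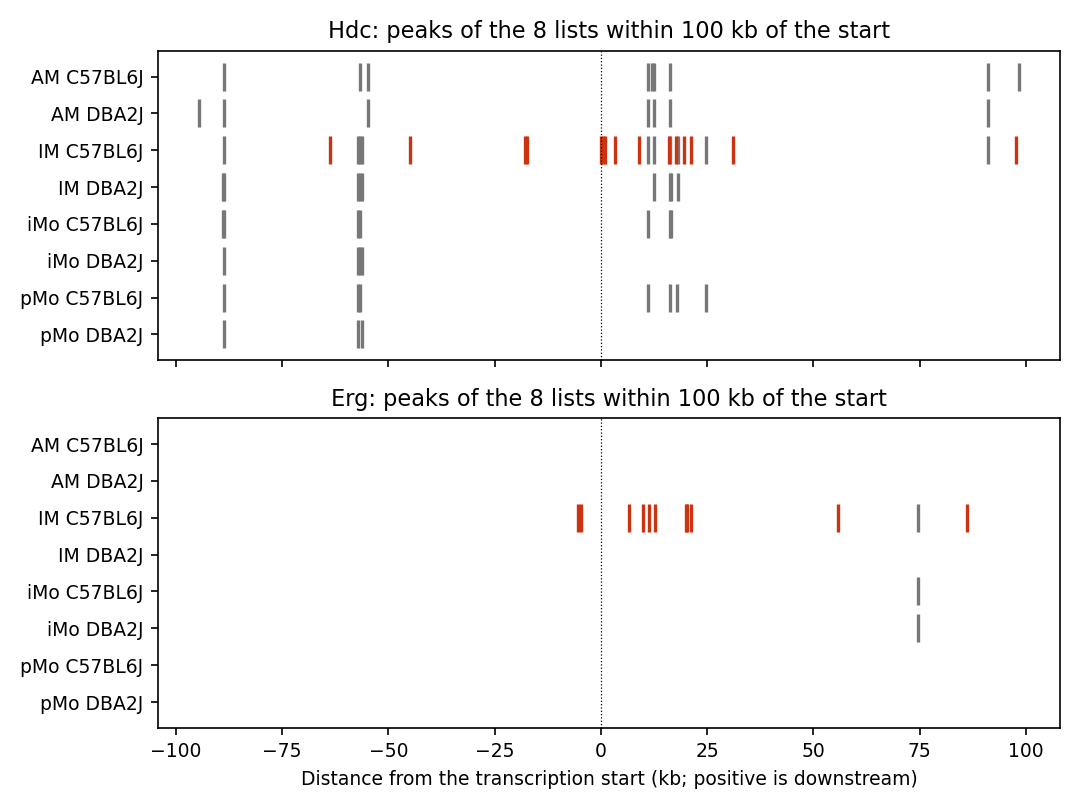
Peaks of the 8 lists (rows) within 100 kb of the starts of Hdc (top) and Erg (bottom), by distance from the start in kb; red ticks are C57BL6J IM peaks in no other list, assigned to any gene, and grey ticks all other peaks. At Hdc 15 of 25 C57BL6J IM peaks were in no other list, and at Erg 11 of 12.

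Neutrophil RNA was in the IM of both strains. Mmp9 was at 456.1 and 561.0 TPM in C57BL6J IM and 383.0 and 282.9 in DBA2J IM, and at most 1.68 in any other library. It was called higher in IM in C57BL6J (log2 difference 8.51, SE 0.19, limma adjusted p = 9.2e-10) and in DBA2J. S100a8, the partner of S100a9, was at 1196 and 1167 TPM in C57BL6J IM and 1467 and 1376 in DBA2J IM, against 11.4 or less elsewhere. Hdc was at 34.5 and 24.8 TPM in C57BL6J IM and 13 and 9.20 in DBA2J IM, with no overlap, and at 3.93 TPM or less in every other library. The difference between strains was called (log2 difference 1.34, adjusted p = 0.014), but was not called without C57BL6J IM replicate 1 (0.056) or without DBA2J IM replicate 2 (0.087). Of the 24 neutrophil genes, 19 were tested. Those with low RNA outside IM passed the filter through IM, which raises the share called. Of these 19, 17 (89.5%) were called higher in C57BL6J IM and 17 in DBA2J IM. All tested genes had 25.2% and 36.0%. After median-of-ratios scaling the neutrophil counts were 14 and 15 of 18. The summed TPM of the 24 genes was 3110 and 3410 in C57BL6J IM, 5030 and 4350 in DBA2J IM, and 52.1 to 287 in the other libraries. Between the 2 strains' IM, 2 of the 19 were called higher in C57BL6J (Hdc and Wfdc21) and 3 lower (Ngp, Cxcr2 and Stfa2l1). The neutrophil genes had 148 peaks in the C57BL6J IM list and 26 in the DBA2J IM list, against 65701 and 23051 over all genes. Their summed RNA was lower in C57BL6J IM. Some granule genes of immature neutrophils were low in all IM, the granule gene Ngp not counted among them. Elane and Mpo were at 0 TPM in the 4 IM libraries. Ltf was at 0.44 and 0.46 TPM in C57BL6J and 3.10 and 3.23 in DBA2J, and Camp at 1.00 and 0.57 against 4.22 and 4.01. Even so, Mpo had 3 members, Elane 1 and Ltf 5. Ly6g, the sorting antigen of neutrophils, was at 0.27, 2.15, 0.91 and 1.18 TPM in the 4 IM libraries and had 3 members. Whether neutrophils inside the gate gave these regions was not tested.

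Endothelial genes held 89 members. Erg, an ETS factor that maintains endothelial identity, had 11 members among 12 C57BL6J IM peaks, spread over 91.9 kb of its locus on chromosome 16, and no peak in the DBA2J IM list. The tallest 4 had heights of 18.9, 17.9, 17.1 and 16.0, all of them inside the gene, and every member lay at least 11362 bp from any other list's peak. Egfl7, a secreted vessel protein, had 9 members, from -31303 bp to 2 bp, with heights of 7.61 to 26.9. Cdh5, the VE-cadherin of endothelial junctions, had 6, 1 of them at -35 bp with a height of 16.3. The transcription factor gene Sox7 also had 6, and Kdr, the main receptor of VEGF-A, had 5. Tie1, an orphan receptor kinase of endothelium, had 1, covering its promoter on chromosome 4 from 118489897 to 118490096 with a height of 42.4, the tallest member of the list. Cldn5, a tight junction claudin, had 4, with heights of 29.4, 28.4, 12.1 and 11.5, of which the second is the promoter shown above. All 89 endothelial members were more than 500 bp from any peak of another list.

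In RNA, Erg was at 1.61 and 2.25 TPM in C57BL6J IM, 0.11 and 1.06 in DBA2J IM and 0.85 or less elsewhere, too low for the test. Cdh5 was at 12 and 19.6 TPM in C57BL6J IM and 1.21 and 9.46 in DBA2J IM. The other C57BL6J libraries had 0.55 to 2.27, and AM of DBA2J reached 7.04. Cldn5 was at 79.0 and 135.9 TPM in C57BL6J IM, 7.43 and 52.4 in DBA2J IM, 30.5 and 68.4 in AM of DBA2J and 4.19 to 21.8 in the rest. Cldn5 was called higher in C57BL6J IM than in the average of the other C57BL6J cells (log2 difference 3.01, SE 0.61, limma adjusted p = 3.7e-03), though not without C57BL6J IM replicate 2 (0.053). Of 23 tested endothelial genes, 21 (91.3%) were called higher in C57BL6J IM, against 25.2% of all tested genes, and 5 (21.7%) in DBA2J IM, below the 36.0% of all tested genes; after median-of-ratios scaling 21 and 3 were higher, with 1 lower in each strain. Replicate 1 of DBA2J IM was the low library: leaving it out raised the DBA2J count from 5 to 18, and leaving out DBA2J IM replicate 2 lowered it to 2. Leaving out C57BL6J IM replicate 2 lowered the C57BL6J count from 21 to 14. A direct test called 3 of the 23 higher in C57BL6J IM than in DBA2J IM (Vwf, Esam and Car4). That count was 15 without DBA2J IM replicate 2, 5 without C57BL6J IM replicate 1, and 1 without either of the other IM libraries. Flt1, an endothelial VEGF receptor with 3 members, was not called (6.95 and 6.85 TPM in C57BL6J IM, adjusted p = 0.23). The summed TPM of the 28 genes was 404 and 689 in C57BL6J IM, 94.3 and 390.0 in DBA2J IM, 196 to 325 in AM and 43.6 to 103 in monocytes; Car4, a carbonic anhydrase that AM also express, made up 143.5 and 172.2 TPM of the C57BL6J AM sum. Endothelial cells lack CD45, which was in the staining panel, and whether such cells gave these regions was not tested.

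**Figure D4:**
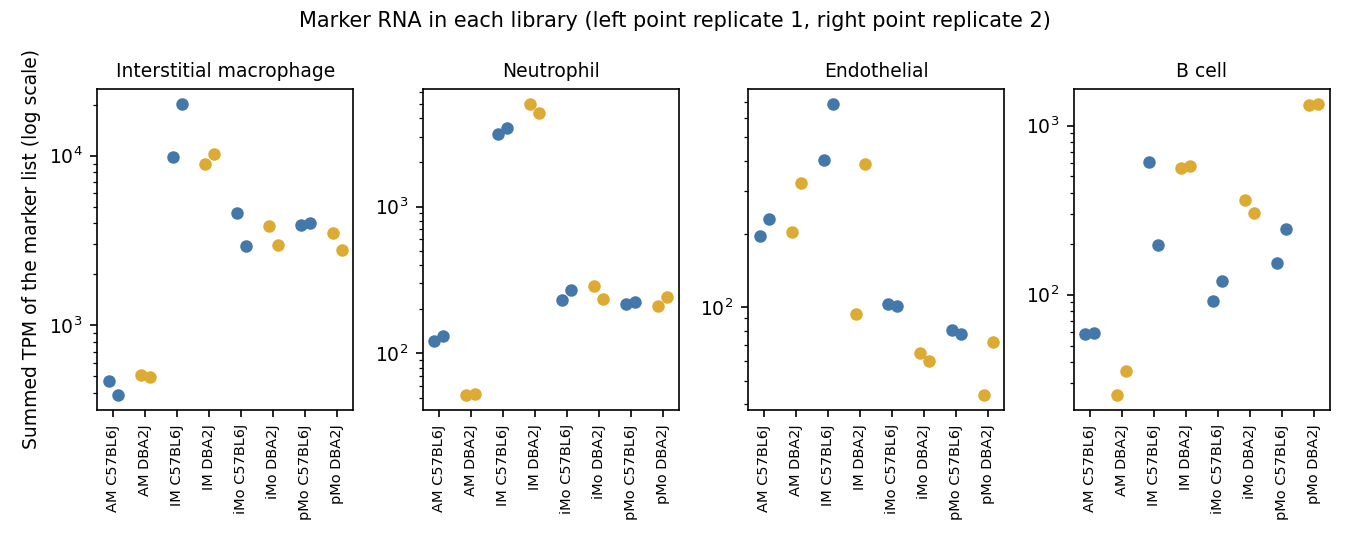
Summed TPM (log axis) of the IM, neutrophil, endothelial and B cell marker lists in each RNA library, replicate 1 left and replicate 2 right within each group, C57BL6J in blue and DBA2J in yellow. Neutrophil RNA was high in all 4 IM libraries (3110 to 5030 TPM), endothelial RNA was highest in C57BL6J IM (404 and 689) and low in replicate 1 of DBA2J IM (94.3), and B cell RNA was highest in DBA2J pMo (1320 and 1350).

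B cell genes held 21 members at 11 of 22 genes (50.0%, against 37.7% of all genes), or 0.955 per gene against 0.748. Cxcr5, the receptor that guides B cells into follicles, had 6 of its 12 C57BL6J IM peaks, from -36663 bp to -310 bp, the first of these being the tallest at 32.3. Tnfrsf13c, the BAFF receptor, had 3, 1 of them at -17 bp. Cd79a and Cd79b, the signalling chains of the B cell receptor, had members at -127 and -24 bp, with heights of 8.64 and 7.61, near the floor of the list. The B cell genes Pax5 and Ms4a1 had none, and the lineage factor Ebf1 had 1. Against the average of the other 3 cell types, 17 of 22 B cell genes (77.3%) were called higher in C57BL6J IM and 18 (81.8%) in DBA2J IM. All tested genes had 25.2% and 36.0%. After median-of-ratios scaling the B cell counts were 15 and 12. Cd79a was at 46.2 and 18.5 TPM in C57BL6J IM and 39.3 and 37.6 in DBA2J IM. Replicate 1 of C57BL6J IM carried the more B cell RNA, with a summed 612 TPM against 197 in replicate 2, and leaving it out lowered the C57BL6J count from 17 to 11. Leaving out either DBA2J IM library lowered the DBA2J count from 18 to 6. Between the strains' IM only Cd22, an inhibitory receptor of B cells, was called, lower in C57BL6J, and 10 genes were without C57BL6J IM replicate 1. Patrolling monocytes of DBA2J, at 1320 and 1350, had more than any IM library, the 560.0 and 579 of DBA2J IM included, and replicate 2 of C57BL6J pMo (244) had more than replicate 2 of C57BL6J IM. At B cell genes the share of peaks that were members, 28.4%, equalled that of all genes.

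Of the other lineages, dendritic cell genes had 21 members at 7 of 15 genes. Ccr7, the receptor that guides dendritic cells to lymph nodes, had 7 of them and was at 9.61 and 6.11 TPM in C57BL6J IM and 4.75 and 7.10 in DBA2J IM. Fscn1, an actin bundler of mature dendritic cells, had 5 and was at 15.2 and 25.6 TPM against 5.33 and 6.61. Of 13 tested dendritic cell genes, 9 (69.2%) were called higher in IM in each strain, or 8 and 7 after median-of-ratios scaling. All tested genes had 25.2% in C57BL6J and 36.0% in DBA2J. The summed RNA of the 15 was 169 and 162 TPM in C57BL6J IM and 133 and 149 in DBA2J IM. In C57BL6J monocytes that sum was 90.3 to 158. T and NK cell genes had 30 members at 13 genes, 6 of them at Tcf7, a factor of T cell development, and 5 at Thy1, a T cell surface protein. Tcf7 was at 2.94 and 1.10 TPM and Thy1 at 1.79 and 0 in C57BL6J IM, and neither was called. Of 19 tested T and NK cell genes, 5 (26.3%) were called higher in C57BL6J IM and 4 (21.1%) lower. All tested genes had 25.2% and 3.45%. In DBA2J IM 4 (21.1%) were called higher and 1 (5.26%) lower, against 36.0% and 5.71% of all tested genes. Collagen genes Col1a1 and Col1a2 had 5 and 2 members, and Tbx4, a factor of the lung mesenchyme, had 3. Col1a1 was at 1.17 and 3.74 TPM in C57BL6J IM and 0.47 and 1.98 in DBA2J IM, and Tbx4 stayed at 0.43 or below in all IM libraries. Gata2, a mast cell and endothelial factor, had 6 members with the tallest at 40.5, and was at 8.91 and 17.0 TPM in C57BL6J IM, 1.15 and 8.05 in DBA2J IM and 8.76 and 8.28 in C57BL6J pMo. Kit, the stem cell factor receptor, had 4 members and was at 2.84 and 4.17 TPM in C57BL6J IM. Cspg4, a proteoglycan of pericytes, had 1 member and was called higher in IM of both strains (14.6 and 17.4 TPM in C57BL6J IM, 4.26 and 8.14 in DBA2J IM). The summed mesenchymal RNA was 30.9 and 129 TPM in C57BL6J IM, 16 and 42.1 in DBA2J IM and 5.10 to 35.6 elsewhere. Prg2, the major basic protein of eosinophils, had 2 members at 0 TPM in every IM library.

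RNA was then read over all genes with a member. Of 5844 tested genes with a member, 1797 (30.7%) were called higher against 25.2% of all tested genes, and 199 (3.41%) were called lower against 3.45%. By another measure, 36.7% of the 5844 had their highest C57BL6J mean in IM, against 35.6% of all tested genes and 35.2% of the genes of shared peaks, and 34.7% had it in iMo. A further 3562 genes with a member were below the limit of 1 TPM and were not tested. The share rose with the number of members, from 25.7% of genes with 1 to 33.7% with 2 to 4 and 47.8% with 5 or more, while genes with other C57BL6J IM peaks but no member had 20.4%. The same genes tested in DBA2J gave 34.9%, 36.9% and 39.7% against 36.0% of all tested genes, and 37.2% with no member. After median-of-ratios scaling the C57BL6J shares were 15.0%, 20.0% and 33.6% against 14.1%, and the split of genes with a member changed from 1797 higher and 199 lower to 1078 and 924. In DBA2J that split went from 2109 and 364 to 1062 and 1408. The DBA2J count of 2109 was 1055 without DBA2J IM replicate 1 and 1072 without replicate 2. Without replicate 1 the DBA2J shares were 15.0%, 20.1% and 27.2% with 1, 2 to 4 and 5 or more members and 13.1% with none, and without replicate 2 they were 16.6%, 19.9%, 21.3% and 15.6%. Genes with a member within 1 kb of their start had 658 of 1911 called higher in C57BL6J IM (34.4%), and genes with a peak of both IM lists alone had 103 of 245 (42.0%). None of these differences between groups of genes was tested.

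**Figure D5:**
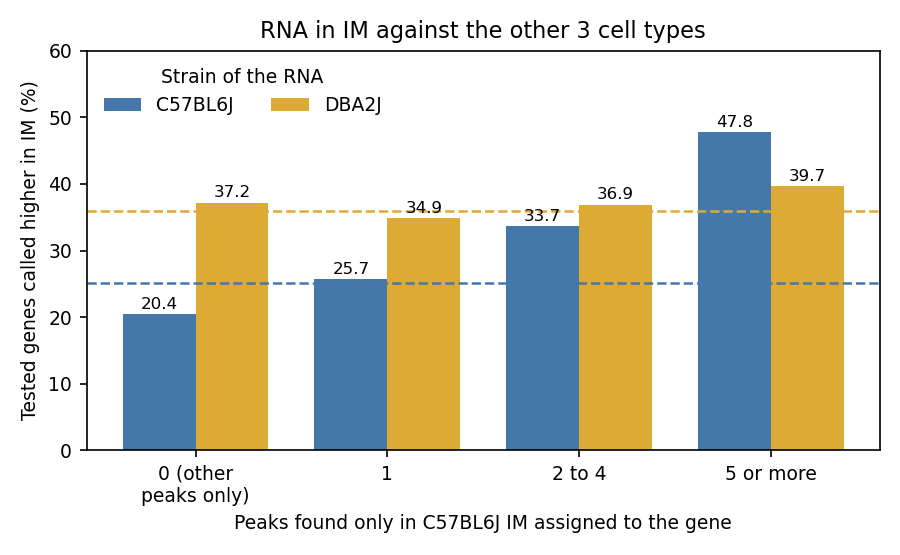
Percent of tested genes called higher in IM than in the average of the other 3 cell types of the same strain (bars, from 0) by the number of members assigned to the gene, for RNA of C57BL6J (blue) and DBA2J (yellow); dashed lines give all tested genes (25.2% and 36.0%). In C57BL6J the share ran from 20.4% with no member to 47.8% with 5 or more. In DBA2J it was 37.2% with no member, 34.9% with 1 and 39.7% with 5 or more. Without DBA2J IM replicate 1, not drawn, the DBA2J shares ran from 13.1% with no member to 27.2% with 5 or more.

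Between the 2 strains' IM, 500 of the 5844 genes (8.56%) were called higher in C57BL6J against 6.74% of all tested genes, and 198 (3.39%) lower against 3.77%. By number of members the higher share was 6.99%, 9.53% and 13.6%, against 4.94% of genes with other peaks only. The count was 167 without DBA2J IM replicate 1 and 189 without C57BL6J IM replicate 2, so single libraries carried much of it. Gpnmb, a glycoprotein of lipid-laden macrophages, was at 60.5 and 41.7 TPM in C57BL6J IM and 1.05 and 1.82 in DBA2J IM (log2 difference 4.41, SE 0.45, limma adjusted p = 1.8e-04), and had 1 member. Among genes lower in C57BL6J IM were Fut2, a fucosyltransferase with 2 members (1.10 and 0.40 against 19.0 and 12.4 TPM, log2 difference -3.26), and the ATP receptor gene P2rx1, also with 2 (1.16 and 0.15 against 19.7 and 21.9 TPM, log2 difference -3.79). The largest was H2-Ea-ps, an MHC class II sequence with 1 member, at 2.13 and 3.42 TPM in C57BL6J IM and 1486 and 1362 in DBA2J IM. Peaks found only in the C57BL6J IM list thus lay at genes with more RNA and at genes with less RNA in that strain.

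Whether the IM contrast itself differed between strains was tested as an interaction. It called 206 of the 5844 genes (3.52%) with a larger difference in C57BL6J against 2.75% of all tested genes, and 93 (1.59%) with a smaller one against 1.8%. With 5 or more members 5.39% were called larger. The count of 206 was 54 without DBA2J IM replicate 1, 75 without C57BL6J IM replicate 2 and 384 without C57BL6J IM replicate 1. Stab1 was among them (adjusted p = 0.012), though not without C57BL6J IM replicate 2 (0.052) or DBA2J IM replicate 1 (0.075). Of the lists, 5 of 26 IM genes and 2 of 23 endothelial genes had a larger difference in C57BL6J, 4 of 19 neutrophil genes (Csf3r, Cxcr2, Ngp and Padi4) had a smaller one, and no B cell gene was called of 22. Without C57BL6J IM replicate 2 or without DBA2J IM replicate 1, the IM and the endothelial counts were both 0, and without DBA2J IM replicate 2 they were 2 and 14. The neutrophil count was 1 without any 1 of these 3 libraries.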

How the data were processed

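The 8 peak lists hold open chromatin regions of 2 ATAC-seq libraries each, and the authors deposited with every region a height (a signal value in even steps) and a whole-number score, whose making is not stated per the file headers. TPM values of poly(A) RNA-seq were deposited by the authors, as the file headers name them, and the RNA depth is unknown. Bowtie, STAR and HOMER are named, without role or version, and mm10 as the build, per the submitters' processing notes.

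Regions were 200 bases wide, except 6 shorter ones in the C57BL6J IM list, and an overlap of 1 base counted as shared. Each region was given to the nearest transcription start within 100 kb. RNA was fitted with limma 3.58.1 in R 4.3.3 on log2(TPM + 1), with 1 mean per group over all 8 groups and Benjamini-Hochberg adjustment over 12277 genes. The script was tested on simulated data: of 200 changed genes among 12277, 50% were called at a log2 change of 1 and 92% at 2 in the C57BL6J IM contrast. For C57BL6J IM against DBA2J IM these shares were 21.5% and 88.5%. For the strain difference they were 4.5% and 78.5%, so most changes of 1 would be missed there. Alternatives were pseudocount, filters, median-of-ratios scaling, removal of Rn45s and Mir6236, leaving out each library, assignment distance and stricter peak sets. Motifs and GC content had been planned for all regions and were limited to RefSeq promoter windows (GRCm38.p6), as no genome was used here.

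Named genes were the 12 with the most members, those of the 10 best-scored members, up to 6 per marker list by number of members, and the 8 largest called differences in each direction at 10 TPM or more, predicted genes aside. Other genes of the lists were named after their values were seen. The members and the lists were chosen with earlier results of these data known. A few genes that the rule or the lists would name are not reported here.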

Additional observations from a re-analysis of the deposited data

Results flagged for a closer look

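For 16 genes with a region of their own, the difference between IM and the other 3 cell types was called as unequal in the 2 strains by limma's interaction term, and each value here is the C57BL6J difference minus the DBA2J difference in log2. Gpnmb differed by 3.76 and Cyr61, a matricellular protein gene, by 3.88. H2-Q10, an MHC class I gene whose close relatives can share its reads, differed by 7.40, with 109.0 and 93.6 TPM in C57BL6J IM and 27.2 and 28.9 in DBA2J IM. Most of that value came from the other 3 cell types, which had 1.79 TPM or less in C57BL6J and 48.0 to 108.3 in DBA2J. The small RNA genes Snora31, Mir1901, Mir7079, Mir3108 and Mir7011 differed by 8.29, 6.0, 5.76, 5.26 and 4.51, and all 5 were listed at 0 in both DBA2J IM libraries. On the other side, the ribosomal protein genes Rpl19, Rpl21 and Rps24 differed by -3.20, -3.06 and -2.00; such genes have many processed copies that can share reads. Hax1 differed by -2.64, Fut2 by -2.28, Tomm6os by -2.16, the granule gene Ngp by -2.16 and the chaperone gene Hspa8 by -2.12.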

How the results depend on the processing

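The number of regions rested on low peaks. It was 2693 among the better-scored 50% of the list and 658 among as many best-scored peaks as the DBA2J IM list holds. At or above the lowest height of the other lists it was 1676, and 351 at or above their highest minimum, both limits added after seeing the data. Genes with a member were 4846 within 5 kb, 2003 in the better-scored 50% and 1333 above the lowest height of the other lists. For those settings in turn, IM markers with a member numbered 10, 5 and 4, and B cell markers 6, 2 and 2. Neutrophil markers numbered 9 and 8 under the latter pair, and endothelial markers 12 above that height.

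Among genes with a member, those higher in C57BL6J IM numbered 1095 at a mean of 5 TPM and 1078 after median-of-ratios scaling. Those lower numbered 924 after that scaling and 300 without Rn45s and Mir6236. In DBA2J the scaling gave 1062 higher and 1408 lower, and the removal 780 lower. Between the strains' IM, 333 were higher at a mean of 5 TPM. The strain difference gave 385 larger and 158 smaller with no filter, 149 smaller after scaling, and 508 larger after the removal. Leaving out 1 library at a time gave 1225 to 1932 higher and 121 to 217 lower in C57BL6J, and 1055 to 2331 and 147 to 416 in DBA2J. Between the strains' IM it gave 167 to 629 and 80 to 353, and for the strain difference 54 to 384 and 32 to 240. The cause was not tested. In windows of 100 bp the E-box letters were in 8.13% of promoter members and 4.22% of shared promoter peaks, and the KLF letters in 3.2% and 1.97%.

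H2-DMa reversed to -0.08 in the DBA2J contrast after median-of-ratios scaling, and the strain difference of H2-Ea-ps to 0.30 with a pseudocount of 0.1. With the replicate number as a block, genes with a member gave 1800 higher and 196 lower in C57BL6J IM, 2108 and 355 in DBA2J IM, 472 and 184 between strains, and 191 and 78 for the strain difference. Deviations of same-numbered libraries had a median correlation of 0.02 over 28 pairs of groups (-0.07 to 0.2, with 5 over 0.1), which does not show that the numbers pair the samples. ATAC-seq depth was not given, and 2 libraries per group limited every RNA comparison.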
